A study of Mus musculus with 25 samples.

Results

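Malat1 and Neat1 are neighbouring long noncoding RNAs of mouse chromosome 19 that stay in the nucleus. They were followed here through 25 libraries that map where the splicing factor SRSF7 touches RNA in the mouse embryonal carcinoma line P19. The 2 RNAs were chosen by position: Malat1 is every minus-strand event in chr19:5795001-5803000 and Neat1 every minus-strand event in chr19:5824001-5846000, in build mm9. Both intervals are wider than the transcripts they hold, and no mm9 annotation was used, so exons and isoforms are not assigned.

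The libraries were made by iCLIP, in which ultraviolet light fixes a protein to the RNA it touches, the protein is immunoprecipitated, and the end of each cDNA marks the crosslinked nucleotide. Each deposited event score is the number of cDNAs at a nucleotide, and levels below are events per 1000000 events of the whole library (CPM) or percent of those events. The piCLIP libraries are described as monosomal or polysomal fractions. An anti-EGFP antibody was used for cells with SRSF7mutZn-GFP (mutZn, 2 libraries), cells with SRSF7D27aa-GFP (D27aa, 2 libraries), polysomal fractions (poly_IP, 2 libraries) and monosomal fractions (mono_IP, 2 libraries) of SRSF7-GFP overexpressing cells, and whole SRSF7-GFP overexpressing cells (called WT here, 3 libraries). An anti-SRSF7 antibody was used for the groups titled RRM_OE, endo_OE and GFP_OE (2 libraries each), all labelled SRSF7-GFP OE, and for cells of WT genotype (endo_WT, 1 library). Controls had 1 library each: mutZn_noUV, D27aa_noUV and WT_noUV without irradiation, GFP_OE_noUV and GFP_OE_noAb for the anti-SRSF7 set, and poly_IgG and mono_IgG for the fractions. The labels do not spell out what mutZn, D27aa and RRM change, and they list anti-EGFP for the 2 libraries titled IgG.

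Malat1 is an abundant RNA of nuclear speckles, the bodies where splicing factors of the SR family gather. Neat1 is the scaffold of paraspeckles: its short and long isoforms share their 5′ end, and the long isoform builds the body. SRSF7 is an SR protein with an RNA recognition motif and a zinc knuckle, and it moves between nucleus and cytoplasm.

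Library totals ranged from 17763 to 11782376 events among the 18 irradiated antibody libraries and from 1153 to 89070 events among the 7 controls. The 2 mutZn libraries and WT 4 are the deepest. Libraries whose headers give the same library identifier are taken throughout as 1 sequencing run, a reading that was not checked otherwise. D27aa_noUV stood apart from the other controls in what it shared: 31.3% of its 34124 crosslinked nucleotides over the whole genome also held an event in WT 4, a library of the same sequencing run whose barcode differs from it in 1 letter. WT_noUV and mutZn_noUV, from another run, shared 11.9% and 9.69% of their nucleotides with WT 4, and D27aa_noUV shared 2.64% with D27aa 2. A deeper library offers more to share: D27aa 2 held 356203 crosslinked nucleotides and WT 4 held 3511382. Whether events passed between libraries was not tested, and the UV minus no-UV differences are given with and without D27aa_noUV.

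The strand and position of the events went with the 2 transcripts. Over all libraries Malat1 held 262298 minus-strand events and 5 on the opposite strand, and Neat1 held 1076 against 9. Malat1 held 32787 events per 1000 nt and Neat1 48.9, against 3.33 on the minus strand between the intervals, from 70 events.

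Malat1 took a share of the order of 1% of all events in most libraries, with either antibody. The no-UV controls held shares of like size, from 0.936% in D27aa_noUV to 1.398% in WT_noUV. The share is therefore not particular to irradiated libraries and does not by itself measure SRSF7 crosslinking. Among the 18 irradiated antibody libraries the Malat1 share was lowest in poly_IP 2, at 0.485%, had a median of 0.993%, and was highest in mono_IP 1, at 1.58%. Per 1000 nt it ranked first among all strand-specific 5000 nt windows of the genome in mutZn 3, mutZn 4 and mutZn_noUV, and at rank 2 or 3 in 14 other libraries. Neat1 was far lower: it had an event in 16 of the 25 libraries, and Malat1 had 243.8 events for each Neat1 event over all libraries.

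**Figure D1:**
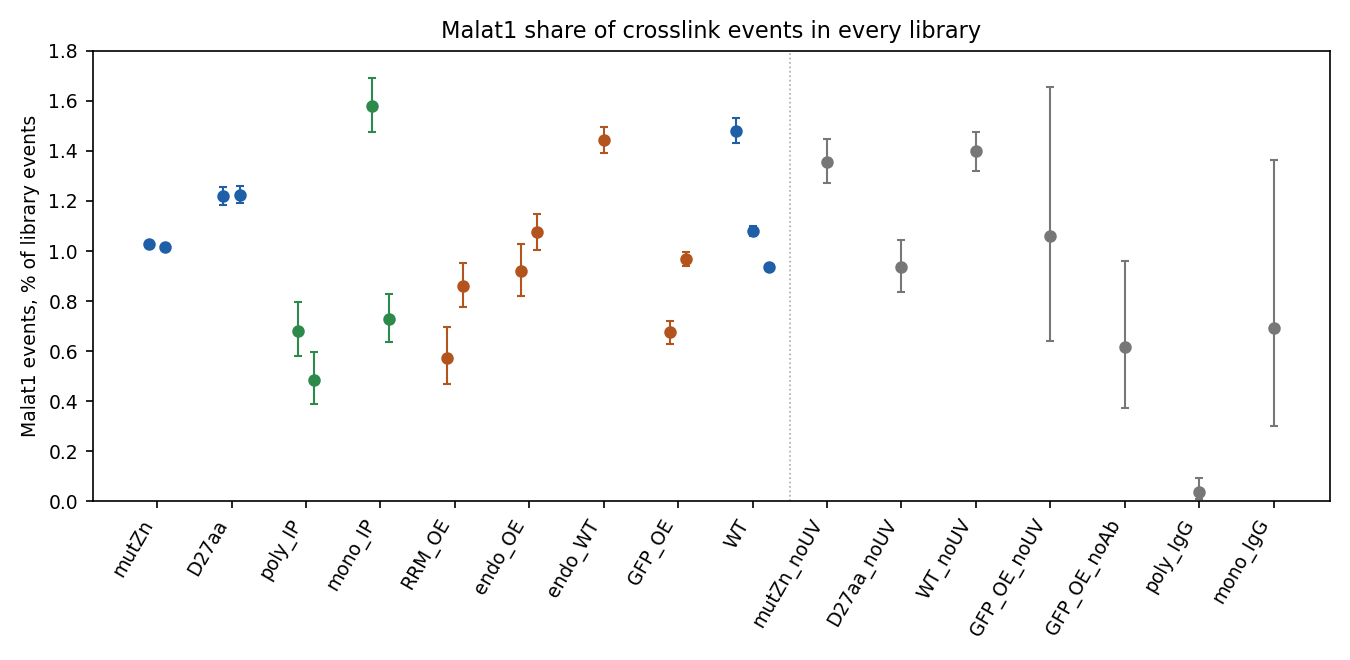
Malat1 events as a percent of all events of each library, by group. Each point is 1 library, bars are exact 95% binomial intervals that cover counting error only, and the dotted line separates irradiated antibody libraries on the left from controls on the right. Most points lie between 0.485% and 1.58%, while poly_IgG lies at 0.0358%.

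The first question was whether the altered proteins touch the 2 RNAs as often as SRSF7-GFP does. Malat1 took 1.03% of events in mutZn 3 and 1.02% in mutZn 4, and 1.22% in D27aa 1 and D27aa 2, against 1.48%, 1.08% and 0.935% in WT 2, WT 3 and WT 4. The values of both altered proteins lie inside the range of the WT libraries. In CPM Malat1 averaged 10234 ± 94.8 in mutZn (SD, n = 2) and 12223 ± 32.4 in D27aa (SD, n = 2), against 11658 ± 2828 in WT (SD, n = 3). The mutZn minus WT difference was -0.19 on the log2 scale (SE 0.17, adjusted p = 0.491), and the 95% interval of the fold was 0.696 to 1.11. The D27aa minus WT difference was 0.18 (SE 0.17, adjusted p = 0.723), and mutZn minus D27aa was -0.37 (SE 0.19, adjusted p = 0.403). Neither of these is settled. D27aa minus WT passed with limma-voom (0.30, adjusted p = 0.0473) and without WT 2 (0.26, adjusted p = 0.0434). The mutZn minus D27aa difference passed with limma-voom (-0.37, adjusted p = 0.00913) and with each position counted once (-2.95, adjusted p = 1.70e-12). Counting each position once caps Malat1 in deep libraries. In the 6909 nt that hold nearly all its events, 92.4% and 88.9% of nucleotides held an event in mutZn 3 and 4. In D27aa 1 and 2 the values were 30.9% and 33.0%, so the -2.95 cannot be told apart from an effect of depth. Of 36197 windows limma-voom called 1133 and 1330 in these comparisons, against 742 and 767 by the quasi-likelihood test. The shares called without WT 2 and with each position counted once are not given here.

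Neat1 had a lower fitted level in mutZn than in WT, a difference carried mostly by WT 3 and WT 4. It had 33.4 CPM in mutZn 3 and 33.2 CPM in mutZn 4, against 36.1, 81.9 and 70.3 CPM in WT 2, WT 3 and WT 4. Both mutZn libraries lie below all 3 WT libraries, but WT 2, which rests on 8 Neat1 events, is close to them. The difference was -1.11 on the log2 scale (SE 0.14, adjusted p = 1.14e-06), a fold of 0.462 with a 95% interval of 0.380 to 0.562. Of the 36197 windows tested in this comparison 18% passed the adjusted p threshold of 0.05, and 9.06% passed it as lower, so the call itself is common; the median difference over all windows was -0.005. Among the libraries of the 1 sequencing run that held all 3 proteins the ratio of mutZn to WT was 0.437 for Neat1 and 1.01 for Malat1, and that of D27aa to WT was 0.575 for Neat1 and 1.21 for Malat1. With each library left out in turn the Neat1 difference stayed between -1.18 and -1.04, and its adjusted p between 2.18e-13 and 0.00745.

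D27aa gave a Neat1 estimate of like size with far fewer events. D27aa 1 had 18.6 CPM from 7 events and D27aa 2 had 43.7 CPM from 17 events, and the groups overlap, since WT 2 had 36.1 CPM. The D27aa minus WT difference was -1.09 (SE 0.36) and missed the threshold, with an adjusted p of 0.0788, where 2.05% of windows passed. It passed with library totals alone, without the filter on low windows and without WT 2 (adjusted p of 0.0403, 0.00333 and 0.00521). The mutZn minus D27aa difference for Neat1 was -0.02 (SE 0.35, adjusted p = 0.987), with a 95% interval of the fold of 0.610 to 1.59, and 2.12% of windows passed there.

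**Figure D2:**
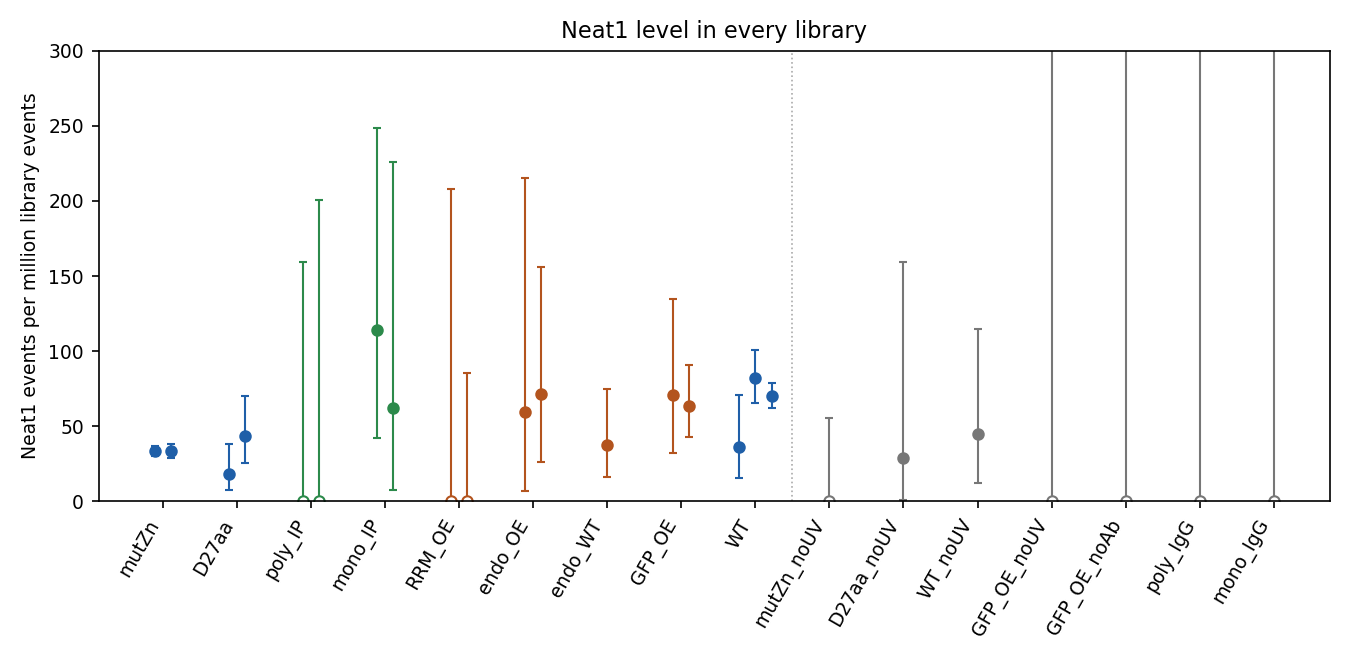
Neat1 events per 1000000 events of each library, by group. Each point is 1 library, open circles are libraries with no event, and bars are exact 95% binomial intervals that cover counting error only and run past the top of the axis for the 4 shallowest controls. The 2 mutZn points, at 33.4 and 33.2, lie below the 3 WT points, at 36.1, 81.9 and 70.3.

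Malat1 events filled most nucleotides of a span whose ends are set by the events themselves. Without an annotation this span was not compared with the transcript. From the outermost nucleotides with at least 10 events over all libraries, chr19:5795767-5802675, 99.9% of Malat1 events fell in 6909 nt, and 95.5% of those nucleotides held an event in at least 1 library. In mutZn 3 alone 92.4% of them did, and in WT 4 81.8%. A stretch of 82 nt, chr19:5802027-5802108, held no event in any library, although the 100 nt on its 5′ side held 961 and the 100 nt on its 3′ side 746. Whether reads could be placed there was not tested.

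Most of the fullest 100 nt bins lay in the 3′ part of Malat1. The exception, chr19:5799601-5799700 in WT, starts 3300 nt from the 5′ end of the 8000 nt interval. In both mutZn and WT the fullest was chr19:5797201-5797300, with 4.02% of Malat1 events in mutZn and 4.99% in WT. The next bins in mutZn were chr19:5797801-5797900 with 3.60%, chr19:5797301-5797400 with 3.18%, chr19:5797401-5797500 with 2.74% and chr19:5798001-5798100 with 2.72%. In WT they were chr19:5797001-5797100 with 3.84%, chr19:5797301-5797400 with 3.23%, chr19:5798201-5798300 with 2.78% and chr19:5799601-5799700 with 2.77%. The 5 fullest bins of each group held 16.3% of its Malat1 events in mutZn and 17.6% in WT, so no single site carries the RNA. Over the 80 bins, which share base composition and mappability in every library, the summed mutZn and WT profiles correlated at r = 0.86, mutZn and D27aa at 0.70, and D27aa and WT at 0.82.

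The bin chr19:5797001-5797100 separated the proteins most visibly among these. It held 2.09% and 1.97% of Malat1 events in mutZn 3 and 4 and 6.26% and 6.64% in D27aa 1 and 2, against 4.41%, 4.09% and 3.71% in WT 2, 3 and 4. The 3 groups do not overlap. This bin was picked after the profiles were seen, so no test is given.

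The 1000 nt segments of both RNAs were compared between the proteins. For mutZn minus WT 11 of 30 segments had enough events to be tested, and 4 were called, where 23.6% of all 1000 nt windows were called, 12.3% as higher and 11.3% as lower. In Malat1 the segment chr19:5801001-5802000, near the 5′ end, was lower by 1.33 on the log2 scale (SE 0.31, adjusted p = 0.00500). It had 796 and 794 CPM in mutZn, against 3883, 1481 and 1245 CPM in WT 2, WT 3 and WT 4, with no overlap. Without WT 2 the difference was -0.78 (adjusted p = 0.000196). The unirradiated controls differed in the same direction, with 1095 CPM in mutZn_noUV against 3986 CPM in WT_noUV, each 1 library. Both lie above all irradiated libraries of their protein, and whether this segment difference needs irradiation was not tested. The segment chr19:5795001-5796000 at the 3′ edge, at 21.2 and 20.5 CPM in mutZn against 18.04, 5.46 and 14.7 CPM in WT, was higher by 0.76 (adjusted p = 0.0140). WT 2 and WT 3 rest on 4 and 6 events there, WT 2 is close to mutZn, and 5 of 9 alternatives called this segment. The other 6 Malat1 segments did not pass.

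In Neat1 both called segments lay in the 5′ part. The segment chr19:5844001-5845000 had 16.1 and 15.7 CPM in mutZn, against 18.04, 38.2 and 27.1 CPM in WT, a difference of -0.82 (SE 0.17, adjusted p = 0.00189). The segment chr19:5843001-5844000 had 6.45 and 5.59 CPM in mutZn, against 9.02, 12.7 and 14.9 CPM in WT, a difference of -1.16 (SE 0.24, adjusted p = 0.00148). All mutZn values lie below all WT values in both segments, but WT 2 rests on 4 events in the first and 2 in the second. With either mutZn library left out, 3 of the 4 segments were tested and none of them was called, at much the same size: -1.35 and -1.36 for chr19:5801001-5802000, 0.79 and 0.82 for chr19:5795001-5796000 and -0.84 and -0.82 for chr19:5844001-5845000. The segment chr19:5843001-5844000 did not pass the filter there, and was called in the 6 of 6 alternatives that tested it.

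No segment was called for D27aa minus WT by the quasi-likelihood test, where 3.43% of windows were called; 3 of 11 had an unadjusted p under 0.05, and limma-voom called 1. That 1, chr19:5802001-5803000 at the 5′ end of Malat1, had 157 and 190 CPM in D27aa, against 437, 283 and 286 CPM in WT.

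**Figure D3:**
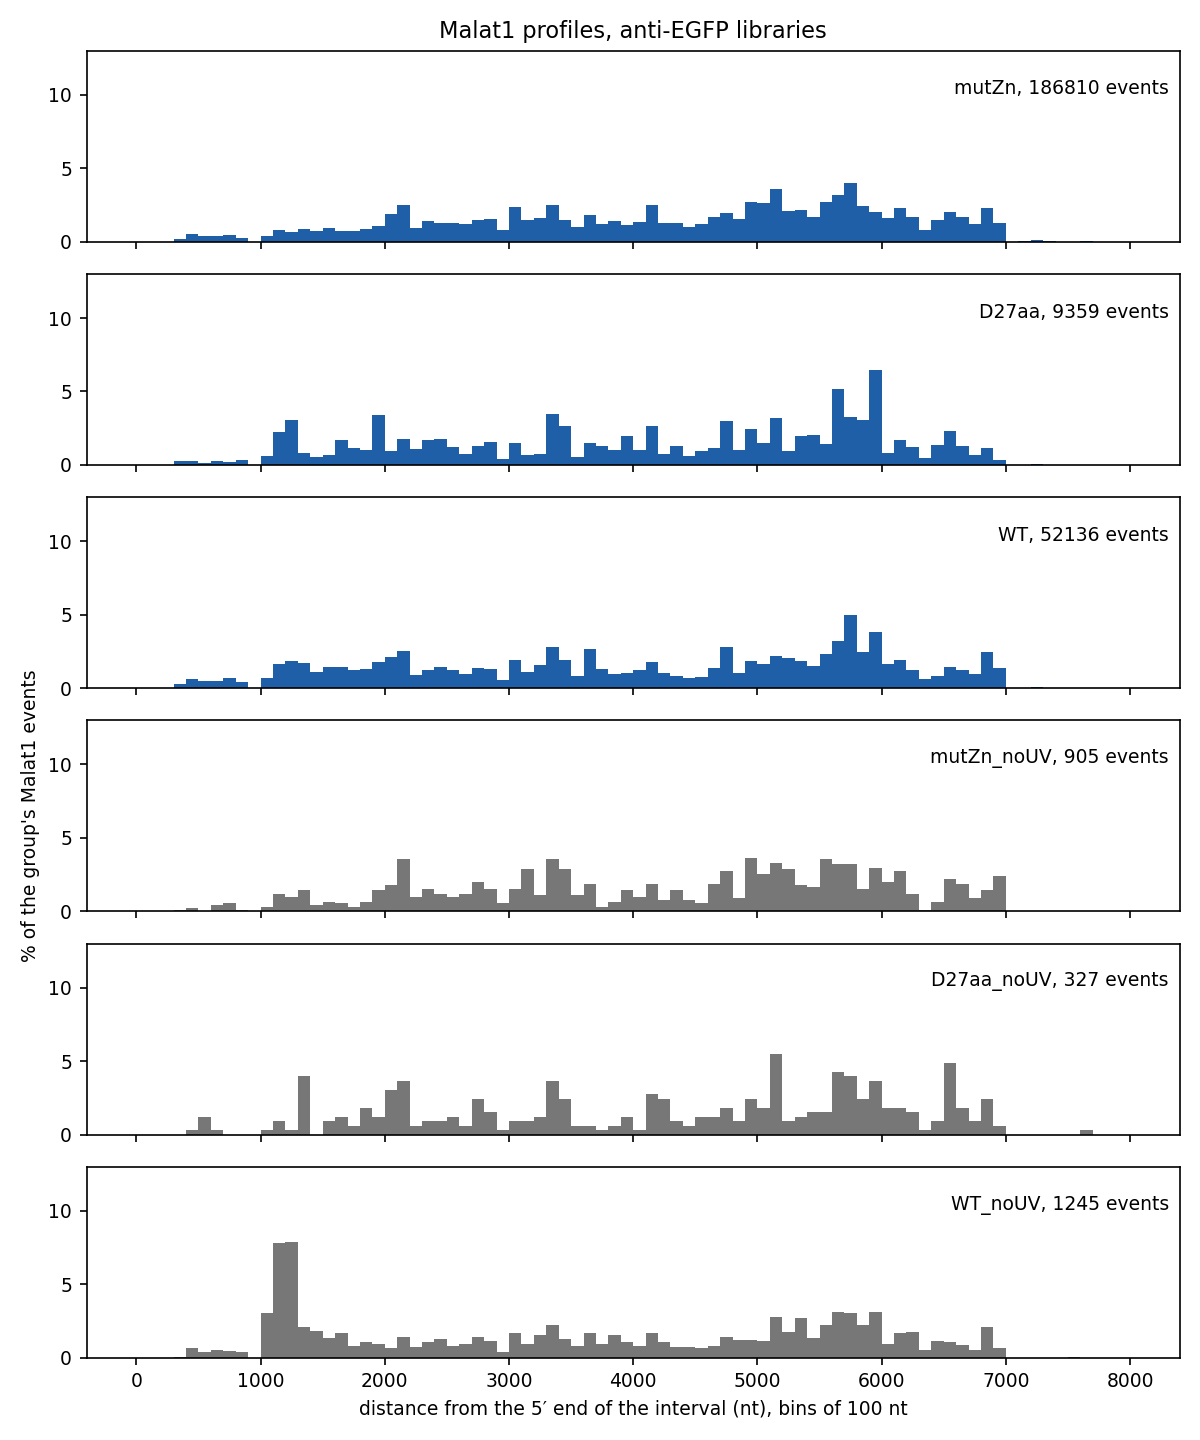
Malat1 events in bins of 100 nt as a percent of each group's Malat1 events, against distance from the 5′ end of the interval, for the anti-EGFP groups with their no-UV controls. The WT_noUV profile is tallest 1000 to 1299 nt from that end, where it holds 18.7% of its Malat1 events.

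Events on Neat1 were concentrated toward the 5′ end of the interval. The 5′ 4000 nt of the 22000 nt interval held 82.3% of all Neat1 events, with 86.0% and 84.1% in mutZn, against 87.5%, 82.2% and 78.8% in WT. The fullest 100 nt bin in mutZn was chr19:5844701-5844800 with 6.91% of Neat1 events, followed by chr19:5844401-5844500 with 6.41%, chr19:5844201-5844300 with 6.09%, chr19:5844801-5844900 with 5.26% and chr19:5844001-5844100 with 4.61%. In WT 4 bins were level at 5.59%, chr19:5844101-5844200, chr19:5844201-5844300, chr19:5844701-5844800 and chr19:5845001-5845100, and chr19:5844301-5844400 held 4.52%. Over the 220 bins the summed mutZn and WT profiles correlated at r = 0.89, with most bins empty in both.

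**Figure D4:**
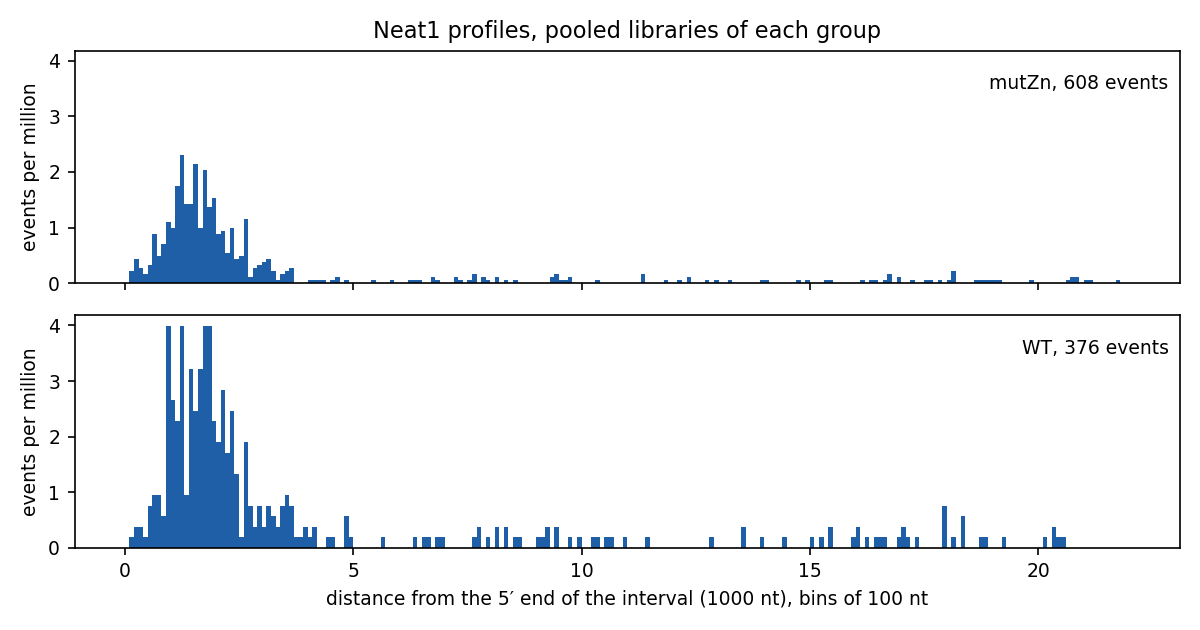
Neat1 events per 1000000 library events in bins of 100 nt, against distance from the 5′ end of the interval, for the pooled mutZn and WT libraries. The first 4000 nt hold 85.4% of the pooled mutZn events and 79.8% of the pooled WT events.

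The second question was whether the 2 nuclear RNAs are still met in the piCLIP fractions. Malat1 was: it had 0.683% and 0.485% of events in poly_IP 1 and 2, and 1.58% and 0.728% in mono_IP 1 and 2, against 1.48%, 1.08% and 0.935% in the WT iCLIP libraries. Both polysomal values lie below both monosomal and all WT values. The poly_IP minus mono_IP difference was -0.38 (SE 1.002, adjusted p = 0.999), with a 95% interval of the fold of 0.197 to 3.00, and 0.163% of the 612 tested windows were called. It was -0.036 without mono_IP 1 and -1.11 without mono_IP 2.

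The model values of the fractions against WT depend on the scaling and on single libraries. With the trimmed-mean scaling used for all fits Malat1 was lower by 4.23 in mono_IP (SE 0.91, adjusted p = 0.0109) and by 4.61 in poly_IP (SE 0.91, adjusted p = 0.00791), where 40% and 36.9% of windows were called, and 20.4% and 19.3% as lower. With library totals alone the differences were -0.01 (adjusted p = 0.991) and -0.998 (adjusted p = 0.502). The 612 windows that could be tested held 21.8% and 25.9% of events in the poly_IP libraries and 34.9% and 34.5% in the mono_IP libraries, against 9.40%, 7.73% and 6.80% in the WT libraries. The call of mono_IP minus WT also ended without mono_IP 1 (-3.11, adjusted p = 0.0720), without mono_IP 2 (-1.90, adjusted p = 0.256) and with only the libraries of both groups (-1.19, adjusted p = 0.336). That of poly_IP minus WT ended without poly_IP 2 (-2.81, adjusted p = 0.0587), and both ended without the filter (adjusted p = 0.888 and 0.882). The first scaling sets Malat1 against those windows and the second against all events. All piCLIP libraries came from 1 sequencing run that held no WT library, so run and fraction cannot be told apart.

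Neat1 had 6 and 2 events in mono_IP 1 and 2, at 114 and 62.5 CPM, and none in the poly_IP libraries. A count of 0 over the 41502 poly_IP events allows up to 72.3 CPM, above the mean of 62.8 ± 23.8 CPM in WT (SD, n = 3), so a lower Neat1 share of all polysomal events was not detectable at this depth. In mono_IP all 8 Neat1 events lay in the 5′ 4000 nt. The 6 events of mono_IP 1 sat on 3 nucleotides, with up to 3 events at a nucleotide. Neat1 did not pass the filter on low levels in the fits of the fractions and of the anti-SRSF7 groups, so 5 comparisons have no test of it with all libraries and that filter. Without the filter, mono_IP minus WT was -3.96 (adjusted p = 0.0274). It was -0.85 (adjusted p = 0.259) with only the mono_IP and WT libraries, and -1.66 without mono_IP 2. The mean shares run the other way, at 88.3 CPM in mono_IP against 62.8 CPM in WT. For poly_IP minus WT the adjusted p was 0.0622 without the filter and 0.00814 with only the poly_IP and WT libraries. All these fits use the trimmed-mean scaling, and a group at 0 gives no fold. In the fit of both fractions and WT, it multiplied library totals by 3.99 and 3.75 in mono_IP and 2.49 and 2.69 in poly_IP. The WT factors were 0.422, 0.177 and 0.133. These adjusted p therefore do not show a lower Neat1 share of all events, and the share of windows called in these fits is not given.

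The fraction controls differed from each other. In poly_IgG Malat1 had 4 of 11177 events, or 0.0358% (exact 95% interval 0.00975% to 0.0916%), and the mean of poly_IP was 16.3 times that. In mono_IgG it had 8 of 1153 events, or 0.694% (exact 95% interval 0.30001% to 1.36%), and the mean of mono_IP was 1.66 times that. Each control is 1 library with no replicate check.

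The 5′ end of Malat1 took a larger share of its events in the fractions, a stretch picked after the profiles were seen. The first 1000 nt of the interval held 3.80% and 16.9% of Malat1 events in poly_IP and 6.86% and 15.02% in mono_IP, against 2.95%, 2.62% and 3.05% in WT. All 4 fraction values lie above the WT values, but poly_IP 1 rests on 6 events there. In iCLIP with anti-SRSF7 the same stretch held between 0% and 0.649% in all 7 libraries.

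**Figure D5:**
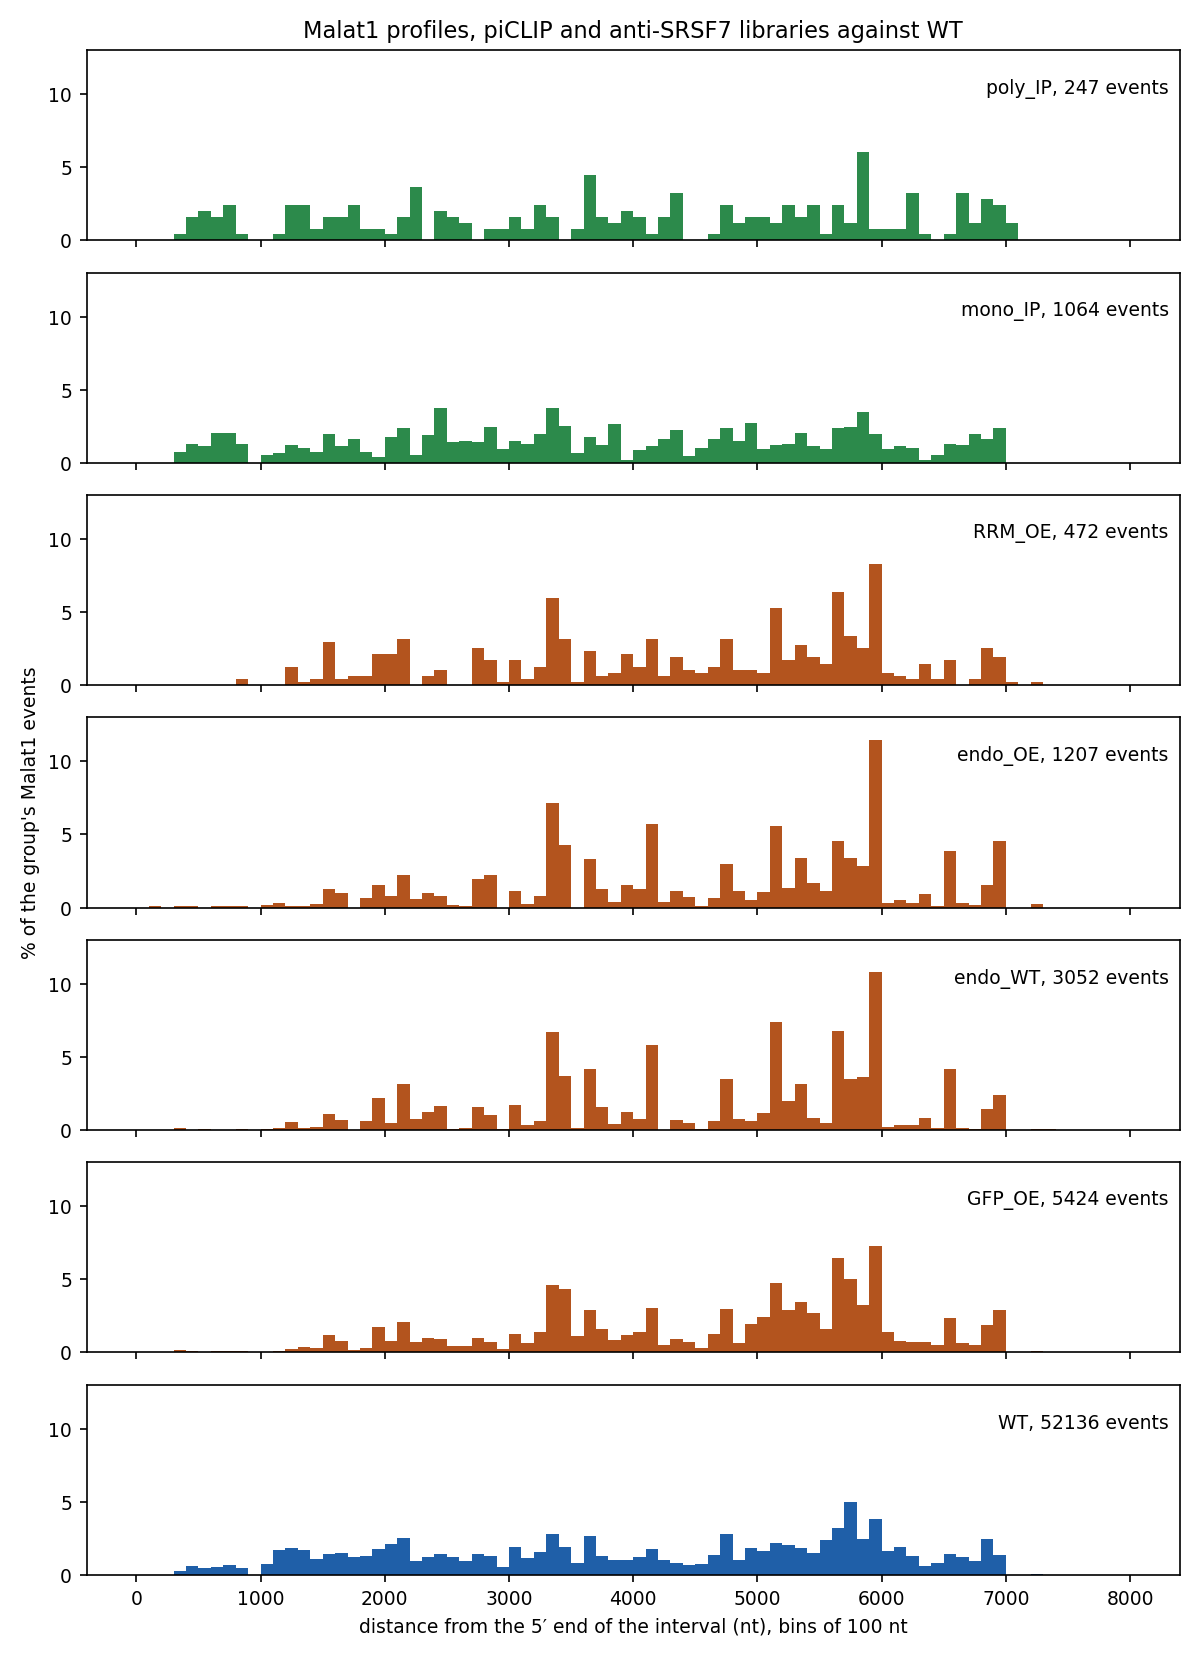
Malat1 events in bins of 100 nt as a percent of each group's Malat1 events, against distance from the 5′ end of the interval, for the piCLIP groups, the anti-SRSF7 groups and WT. The anti-SRSF7 groups share tall bins, highest at 5900 to 5999 nt with 7.28% to 11.4% of events, against 3.84% in WT.

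A further question was whether the antibody or the form of SRSF7 changes what is seen. With anti-SRSF7 Malat1 had 0.574% and 0.861% in RRM_OE, 0.919% and 1.07% in endo_OE and 1.44% in endo_WT, against 0.675% and 0.968% in GFP_OE. RRM_OE minus GFP_OE was -0.32 (SE 0.75, adjusted p = 0.9999) and endo_OE minus GFP_OE was -0.12 (SE 0.75, adjusted p = 0.981). The 95% intervals of the fold, 0.288 to 2.23 and 0.332 to 2.55, leave room for differences in either direction. Neither comparison called any of 441 windows (0% called), with 13 and 7 at an unadjusted p under 0.05 and 0 by limma-voom in both. Within the sequencing run that held all 4 groups, the ratios to GFP_OE were 0.889 for RRM_OE, 1.03 for endo_OE and 1.49 for endo_WT.

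Neat1 had no event in either RRM_OE library, against 9 and 30 events in GFP_OE, or 71.0 and 63.6 CPM. It had 59.7 and 71.7 CPM in endo_OE from 2 and 6 events, and 37.8 CPM in endo_WT from 8. A count of 0 over the 60745 pooled RRM_OE events allows up to 49.4 CPM, which is below both GFP_OE values, but this limit covers counting error only. Taken singly, RRM_OE 3 and RRM_OE 4 allow up to 169 and 69.8 CPM. The exact binomial intervals of GFP_OE 3 and GFP_OE 4, 32.4 to 135 CPM and 42.9 to 90.8 CPM, reach below 49.4 CPM. The endo_WT value also lies below 49.4 CPM. Whether Neat1 has a lower share in RRM_OE than in GFP_OE is therefore not settled. Fitted without the filter, RRM_OE minus GFP_OE gave an adjusted p of 0.171.

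Where the same SRSF7-GFP overexpressing cells were taken with anti-SRSF7 in place of anti-EGFP, the levels of both RNAs did not pass the test. Malat1 was -0.42 (SE 0.54, adjusted p = 0.761) in GFP_OE minus WT, and Neat1, at 71.0 and 63.6 CPM in GFP_OE against 36.1, 81.9 and 70.3 CPM in WT, was 0.06 (SE 0.42, adjusted p = 0.963), where 1.34% of windows were called. The place of the events along Malat1 looked different. The first 1000 nt held 0.350% and 0.635% in GFP_OE, against 2.95%, 2.62% and 3.05% in WT, and the bin 5900 to 5999 nt from the 5′ end held 12.1% and 6.37%, against 4.41%, 4.09% and 3.71%. The groups do not overlap in either stretch, and both were picked after the profiles were seen. In the fit of 1000 nt segments chr19:5802001-5803000 was lower by 2.85 (SE 1.02, adjusted p = 0.194); 0 of 8 tested segments were called where 1.27% of windows were, 1 had an unadjusted p under 0.05, and limma-voom called 3, all in the 5′ part of Malat1. No sequencing run held both groups, so run and antibody cannot be told apart.

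In the summed profiles the anti-SRSF7 groups had higher correlations along Malat1 with each other than with the anti-EGFP groups. D27aa was the closest anti-EGFP group. Over 80 bins endo_OE and endo_WT correlated at r = 0.96, RRM_OE and endo_WT at 0.93 and GFP_OE and endo_WT at 0.92, whereas endo_WT correlated at 0.63 with mutZn, at 0.83 with D27aa and at 0.71 with WT. D27aa itself correlated at 0.84 with GFP_OE and with RRM_OE, against 0.82 with WT. Single libraries did not all follow this order. GFP_OE 3 correlated at 0.88 with D27aa 2 and at 0.87 with GFP_OE 4, but at 0.92 with endo_WT. RRM_OE 3, with 102 events, correlated at 0.73 with D27aa 2 and at 0.63 with RRM_OE 4, but at 0.77 with endo_WT. Most of the anti-SRSF7 libraries share a sequencing run.

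The last question was how the 2 RNAs stand in libraries made without irradiation or antibody. The Malat1 share was of similar size there. It was 1.03% and 1.02% in mutZn, against 1.36% in mutZn_noUV. It was 1.22% and 1.22% in D27aa, against 0.936% in D27aa_noUV, and 1.48%, 1.08% and 0.935% in WT, against 1.398% in WT_noUV. The mutZn values lie below their control, the D27aa values above theirs, and the WT values on both sides. In the anti-SRSF7 set it was 0.675% and 0.968% in GFP_OE, against 1.06% in GFP_OE_noUV and 0.617% in GFP_OE_noAb, each control resting on 19 events. The UV minus no-UV difference, fitted over the 3 anti-EGFP proteins, was 0.16 for Malat1 (SE 0.28, adjusted p = 0.994) and 1.15 for Neat1 (SE 0.78, adjusted p = 0.954), where 0.0251% of windows were called. The median difference over all windows of this fit was 0.204, and Malat1 lay at percentile 47.7 of them. Without D27aa_noUV the differences were -0.19 for Malat1 (adjusted p = 0.993) and 1.20 for Neat1 (adjusted p = 0.965). The Neat1 value was 2.11 without WT_noUV and 0.74 without mutZn_noUV. The shares say nothing of amounts: mutZn_noUV had 66690 events in all against 11782376 and 6436730 in mutZn, and the yield of RNA per cell is not known from these values.

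Neat1 had 4 events in WT_noUV, 1 in D27aa_noUV and none in mutZn_noUV. The 0 in mutZn_noUV allows up to 45.0 CPM, above the 33.4 and 33.2 CPM of the mutZn libraries, so a lower Neat1 share without UV was not detectable at this depth.

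The no-UV profiles along Malat1 differed from each other. Over 80 bins mutZn_noUV correlated at r = 0.88 with the summed mutZn libraries. WT_noUV correlated at 0.58 with the summed WT libraries, at 0.92 with WT 2 and at 0.53 with WT 4, and WT 2 correlated at 0.66 with WT 4. The stretch from 1000 to 1299 nt set these 2 libraries apart: it held 15.04% of Malat1 events in WT 2 and 18.7% in WT_noUV, against 3.81% in WT 3 and 3.43% in WT 4. D27aa had 6.39% and 5.55% there, and mutZn 1.83% and 1.94%. WT_noUV and WT 2 come from different sequencing runs. Over the whole genome WT_noUV shared 3.1% of its nucleotides with WT 2 and 11.9% with the deeper WT 4. WT 2 held 208295 crosslinked nucleotides and WT 4 held 3511382, so these 2 shares do not rank the libraries by likeness.

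The authors' peak lists hold positions above a permuted background, and several pool libraries. The WT list was not made from the 3 WT libraries alone: its scores sum to 62847 in Malat1 and 474 in Neat1, against 52136 and 376 events in those libraries, and it holds 12 opposite-strand positions in the Malat1 interval. Its counts are therefore not comparable with those of the other lists as a measure of the WT libraries. Malat1 held 2748 peak positions in the mutZn list, 1129 in the D27aa list and 2375 in the WT list. The mutZn and WT lists share 1832 of them, which is 66.7% of the mutZn and 77.1% of the WT positions. Malat1 made up 0.122% of the 2246120 positions of the mutZn list, against 5.97% of 2481 in the mutZn_noUV list. It made up 3.25% of 34759 in the D27aa list, against 0.236% of 847 in the D27aa_noUV list, and 0.116% of 2045481 in the WT list, against 5.51% of 3666 in the WT_noUV list. The lists differ so much in length that these shares are not comparable. Neat1 held 298 positions in the mutZn list and 362 in the WT list, 1 each in the D27aa list and the piCLIP list, and none in the no-UV or IgG lists. In the piCLIP list of both fractions Malat1 held 167 of 20437 positions, and in the 2 IgG lists none of 5 and none of 192.

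The windows most like each RNA were sought over the 9 irradiated antibody groups among 133 windows with a mean of at least 200 CPM outside both loci. For Malat1 they were chr7:3215001-3220000 on the plus strand (r = 0.91), chr11:116710001-116715000 on the minus strand (r = 0.91), chr4:134480001-134485000 on the plus strand (r = 0.88), chr11:87860001-87865000 on the plus strand (r = 0.79) and chr6:51410001-51415000 on the minus strand (r = 0.76). For Neat1 the most alike was the same chromosome 6 window (r = 0.80), followed by chr17:35085001-35090000 on the minus strand (r = 0.79), the chromosome 11 window at 116710001 (r = 0.72), the chromosome 4 window (r = 0.68) and chr5:143665001-143670000 on the minus strand (r = 0.63). With 9 groups of unequal depth that share runs these values are a description, and the windows are not named, since no mm9 annotation was used.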

How the data were processed

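The members and all lists, bins and comparisons were chosen with earlier results of these data known. Per the file headers, the deposited score in each library file counts cDNA hits per nucleotide in mm9 (the sign was read as the strand), and the authors' peak lists hold a score of the same kind for positions kept by a permutation filter. The WT list holds more events than the 3 WT libraries used here, so the lists are not treated as subsets of these libraries. The submitters' processing notes name CASAVA 1.4; for the aligner and for duplicate removal the file headers and labels name no tool. Replicate numbers were taken from the titles, although the file headers give other numbers for some libraries, and WT 3 and WT 4 share a run and a header replicate number. Nothing says which libraries came from separate cultures beyond the design text's biological replicates, so p-values measure the spread between these libraries.

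Absolute scores were summed over each interval, over strand-specific windows of 5000 nt and, for segments, of 1000 nt, and set per 1000000 events of the library file. The signed score is not a column of counts, so a negative binomial quasi-likelihood test was written in R 4.3.3 with trimmed-mean scaling (30% of ratios and 5% of levels trimmed), a Cox-Reid dispersion trend, squeezeVar of limma 3.58.1 and Benjamini-Hochberg adjustment over all features. A feature was tested if its CPM reached that of 10 events in a library of median size, in at least the number of libraries of the smallest replicated group, with 15 or more events summed. Groups with a shared fit were mutZn, D27aa and WT; the piCLIP immunoprecipitates and WT; the anti-SRSF7 groups; GFP_OE and WT; and the 10 anti-EGFP iCLIP libraries with protein and UV as terms. The test was checked on simulated data. Intervals of folds are normal intervals from the fitted SE and are narrow for so few libraries. Exact binomial intervals (95%) and limits for 0 (3 events) cover counting error only. Named bins and windows follow the rule of the 5 fullest 100 nt bins in mutZn and WT and the 5 windows with the highest Pearson r of log2(CPM + 20). The other nuclear noncoding and paraspeckle genes of the list could not be placed without an mm9 annotation and are not analysed here.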

Additional observations from a re-analysis of the deposited data

Results flagged for a closer look

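The Malat1 share stood on different sides of the no-UV control in different proteins. The mean log2 ratio of irradiated over no-UV share was -0.41 in mutZn (libraries at -0.42 and -0.40), 0.39 in D27aa (0.38 and 0.39) and -0.39 in GFP_OE (-0.65 and -0.13), while WT, at -0.29, spanned both directions (-0.58 to 0.08). All mutZn and GFP_OE libraries lie below their control and both D27aa libraries above theirs, so that mutZn differs from D27aa by -0.79 and D27aa from GFP_OE by 0.78. Neither difference was tested, since each control is 1 library. GFP_OE_noUV rests on 19 events, and its exact 95% interval of 0.641% to 1.65% covers both GFP_OE shares, 0.675% and 0.968%. Without D27aa_noUV, on which both rest, D27aa has no ratio; that library shared 31.3% of its crosslinked nucleotides with WT 4, and the part of this in the result was not tested.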

How the results depend on the processing

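Over 18 results and 193 alternatives, 151 kept their direction and their side of the threshold (or, for counts, stayed within 1.5 times), 19 reversed, 8 passed the threshold newly, 8 no longer passed it and 7 counts moved. Neat1 in mutZn minus WT kept its call under every alternative run, from -1.20 to -1.04. Unless another cause is named, the cause of a change was not tested. With each position counted once, which caps Malat1 where most of its nucleotides already hold an event, Malat1 was -2.43 in mutZn minus WT, -2.95 in mutZn minus D27aa, 0.042 in RRM_OE minus GFP_OE, 0.16 in endo_OE minus GFP_OE, 0.071 in GFP_OE minus WT and -1.62 in UV minus no-UV, Neat1 was -0.0070 in GFP_OE minus WT, and 9 segments were called in mutZn minus WT. With library totals alone Neat1 was -1.19 in D27aa minus WT, 0.090 in mutZn minus D27aa and -0.057 in GFP_OE minus WT, and Malat1 was -0.014 in mono_IP minus WT, -0.998 in poly_IP minus WT, 0.28 in endo_OE minus GFP_OE and -0.12 in UV minus no-UV. With limma-voom Malat1 was 0.30 in D27aa minus WT and -0.37 in mutZn minus D27aa, Neat1 was 0.032 in mutZn minus D27aa, and 8, 1 and 3 segments were called in mutZn, D27aa and GFP_OE minus WT. Without the filter Neat1 was -1.09 in D27aa minus WT, and Malat1 was -4.23 in mono_IP and -4.61 in poly_IP minus WT, no longer called. With only the libraries of both groups Malat1 was -1.19 in mono_IP minus WT and Neat1 0.077 in mutZn minus D27aa. Leaving out 1 library at a time gave Malat1 0.032 to 0.26 in D27aa minus WT (0.26 and adjusted p = 0.0434 by the quasi-likelihood test without WT 2), -4.81 to -1.90 in mono_IP minus WT (not called without either mono_IP library), -5.11 to -2.81 in poly_IP minus WT (not called without poly_IP 2), -0.37 to 0.13 in endo_OE minus GFP_OE and -0.19 to 0.37 in UV minus no-UV. It gave Neat1 -1.96 to -0.69 in D27aa minus WT, -0.41 to 0.86 in mutZn minus D27aa and -0.095 to 0.31 in GFP_OE minus WT, and 0 to 6 called segments in mutZn minus WT and 0 to 2 in D27aa minus WT. The replicate block, whose numbers are not shown to pair the libraries (correlations of 0.03 and -0.13 for mutZn with WT), gave 0.0020 for Malat1 and -1.18 for Neat1 in mutZn minus WT, -0.32 for Malat1 in poly_IP minus mono_IP, -0.33 in RRM_OE minus GFP_OE and -0.22 in GFP_OE minus WT, and -0.071 for Neat1 in GFP_OE minus WT. The segments of GFP_OE minus WT and the run as a block in the anti-SRSF7 and UV comparisons were added after seeing the data. Depth limits Neat1: 9 libraries, 5 of them controls, held no event.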
